A study of Mus musculus with 8 samples.

Results

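Malat1, Neat1, 7SK and RNase_MRP are RNAs that are not translated and that work in the nucleus or nucleolus, and 3 of the 4 were among the 16 features with most counts in every library of this experiment. Their levels were taken from the table of raw counts per gene, where the rows whose symbol was 1 of these 4 names were picked and the rows of a shared name were added up per library. There were 335 such rows among 37310, which became 4 RNAs among 36979 features, and all 4 passed the filter on low counts together with 13013 features in all. The cells were NMuMG, a mouse epithelial line that came from the mammary gland, in 4 groups of 2 libraries. Control cells and cells with a CRISPR-Cas9 deletion of the promoter and first exon of the long noncoding RNA Lnc-Nr6a1, labelled KO, were left untreated or received TGF-β1 at 10 ng/ml for 2 h. The deletion was made in clones, and the labels do not say how many clones gave the KO libraries. Per the study's methods the 2 libraries of a group were biological replicates.

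The libraries held 4297832 to 13574397 counts. Lnc-Nr6a1, listed as Gm13507, had 3 and 14 counts in untreated control cells and 25 and 35 after TGF-β. In the libraries labelled KO it had 11 and 7 counts untreated and 0 and 0 treated. It was thus not lower in the untreated pair labelled KO than in its control, so that directions between genotypes below are directions between labels. The epithelial markers summed to between 6168 and 10413 CPM (counts per 1000000 counts of the library), with Esrp1, Cldn3 and Cldn7 at 0 in all 8 libraries. The fibroblast markers summed to 6 to 58 counts, the immune markers to 20 to 45 and the endothelial markers to 0 to 9.

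Malat1 is a long RNA kept in nuclear speckles, the bodies where splicing factors gather. Neat1 is the architectural RNA of paraspeckles, bodies that form around it while it is transcribed and that hold RNA-binding proteins. 7SK is a short RNA polymerase III transcript that holds the elongation kinase P-TEFb inactive with the help of Hexim and Larp7 proteins. RNase MRP RNA, also made by RNA polymerase III, is the RNA part of a nucleolar ribonuclease that cuts the precursor of ribosomal RNA. Levels of all 4 were counted in cells of 1 type, and less RNA per cell and fewer cells with the RNA cannot be told apart in such bulk libraries.

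The identifiers of the table are those of GENCODE vM1, so positions and sequences below are given on NCBIM37 (mm9). Malat1 (ENSMUSG00000092341.1) lies on the minus strand at chr19:5795690-5802671 and has 6982 exonic bases. Neat1 (ENSMUSG00000092274.1) lies on the same strand at chr19:5824708-5845478 with 20771 exonic bases, and 22036 bases separate the 2 genes. The symbol 7SK was carried by 331 rows, of which 85 had any count. Its leading row (ENSMUSG00000065037.1, chr9:78023110-78023440, minus strand, 331 bases) took 91.3% of the 7SK counts, and the 3 leading rows took 99.3%. RNase_MRP had 2 rows, and the 1 with counts (ENSMUSG00000088088.1) lies on the minus strand at chr4:43505660-43505930 and has 271 bases.

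The 5′ end of 7SK is shown because it carries the GATC repeats (GAUC in the RNA) of the hairpin to which Hexim1 binds. The first 120 bases of the chromosome 9 gene are followed by the first 100 of the row on chromosome X, since reads from there can be told apart by few bases only. Capitals mark GATC in the first sequence and a difference from chromosome 9 in the second.
7SK, chromosome 9 (chr9:78023321-78023440, minus strand): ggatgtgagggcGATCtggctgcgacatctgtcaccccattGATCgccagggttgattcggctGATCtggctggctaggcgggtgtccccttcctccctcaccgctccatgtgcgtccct
7SK, chromosome X (chrX:149358204-149358303, minus strand): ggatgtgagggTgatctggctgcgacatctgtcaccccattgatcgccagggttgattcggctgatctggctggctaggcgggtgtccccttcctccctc
The motif GATC, which reads the same on both strands, began at bases 13, 42 and 64 of the chromosome 9 gene. At least 3 matches stood in 0.406% of the 120-base windows of chromosome 9. Within the 100 bases printed for it the row on chromosome X differed by C12T. The first letter is the base of the chromosome 9 gene, and positions count from its 5′ end. Past those bases, but within the 120 printed for chromosome 9, it differed by G111C, T112C, G113C, G115C, T116C and T120C. Over the aligned 229 bases the rows on chromosomes 9 and X had 7 mismatches and 2 gap bases, an identity of 96.1%.

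The row on chromosome 15 (ENSMUSG00000065911.1, chr15:93064794-93065131, plus strand) was identical to the chromosome 9 gene over its first 241 bases and diverged after them. Bases 212 to 271 of both are shown because this border decides which reads can be assigned to 1 row. Capitals mark differences from chromosome 9.
7SK, chromosome 9 (chr9:78023170-78023229, minus strand): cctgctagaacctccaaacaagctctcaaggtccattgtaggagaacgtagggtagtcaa
7SK, chromosome 15 (chr15:93065005-93065064, plus strand): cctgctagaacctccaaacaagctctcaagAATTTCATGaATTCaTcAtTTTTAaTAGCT

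RNase_MRP is shown whole because an exon of the protein-coding gene Ccdc107 covers bases 36 to 159 of it, 124 of 271, on the opposite strand. Capitals mark those bases.
RNase_MRP (chr4:43505660-43505930, minus strand): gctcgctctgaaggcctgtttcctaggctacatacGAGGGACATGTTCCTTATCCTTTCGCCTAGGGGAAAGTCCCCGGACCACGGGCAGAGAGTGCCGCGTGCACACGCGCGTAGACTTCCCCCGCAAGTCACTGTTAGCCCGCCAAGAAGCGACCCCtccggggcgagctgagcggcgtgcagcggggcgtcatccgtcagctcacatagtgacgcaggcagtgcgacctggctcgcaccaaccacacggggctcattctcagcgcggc
Whether the counting used strand is not given in the sources used here. Ccdc107 itself summed to 1265 counts over the 8 libraries against 336275 for RNase_MRP. Malat1 likewise shares 425 exonic bases with the antisense gene Gm20417, which summed to 117 counts against 1515012.

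The 3′ region of Malat1 is shown for its U-rich motifs and A-rich tract, which fold into a triple helix that protects the end of the RNA. The U-rich motif searched was 4 T, then T or G, then C, then 4 T. Capitals mark its 2 matches, TTTTTCTTTT and TTTTGCTTTT, and the last 10 bases of the run of A.
Malat1 (chr19:5795977-5796077, minus strand): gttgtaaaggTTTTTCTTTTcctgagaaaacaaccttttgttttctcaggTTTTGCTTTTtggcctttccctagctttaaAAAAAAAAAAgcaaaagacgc
At least 2 U-rich motifs and a run of 10 A stood together on a strand in 4 of the 575661 consecutive windows of 101 bases along chromosome 19, with both strands searched. The U-rich motif was also present in Neat1, TTTTTCTTTT at base 4125 and TTTTGCTTTT at base 20719 of 20771.

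Malat1 was the row with most counts, or the next after 7SK, in each library and took 1.38% to 2.65% of all counts. 7SK took 1.13% to 2.15%, RNase_MRP 0.319% to 0.611% and Neat1 0.0366% to 0.206%. The 95% Wilson intervals of these shares, which cover counting error only, reached at most 0.0133 percentage points to either side. Together the 4 RNAs held 3.85% to 4.54% of a library. Divided by the length of the leading row, as CPM (counts per 1000000 counts, TMM-scaled) per kilobase, the order changed. By that measure of level 7SK ranked 1 in all 8 libraries (32531 to 67917), RNase_MRP 3 or 4 (11784 to 22151), Malat1 from rank 10 to rank 18 (2078 to 3947) and Neat1 from rank 586 to rank 3920 (18.5 to 94.5). The ranges of the 4 RNAs did not overlap on this scale. 7SK and RNase MRP RNA have no poly(A) tail, and the labels name a total RNA kit where the study's methods name an mRNA kit.

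The short rows also held more counts than they have places for a read to begin. The chromosome 9 row of 7SK has 662 start positions on both strands and held 56409 to 199184 counts. The RNase_MRP row has 542 and held 23384 to 64060. If both ends of a fragment were read, 109892 fragments could be told apart within the 7SK row and 73712 within the RNase_MRP row on both strands, which the counts exceeded in 4 libraries for 7SK and in 0 for RNase_MRP. The methods state that duplicate reads were removed, and whether this was done before these counts were made was not tested.

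**Figure D1:**
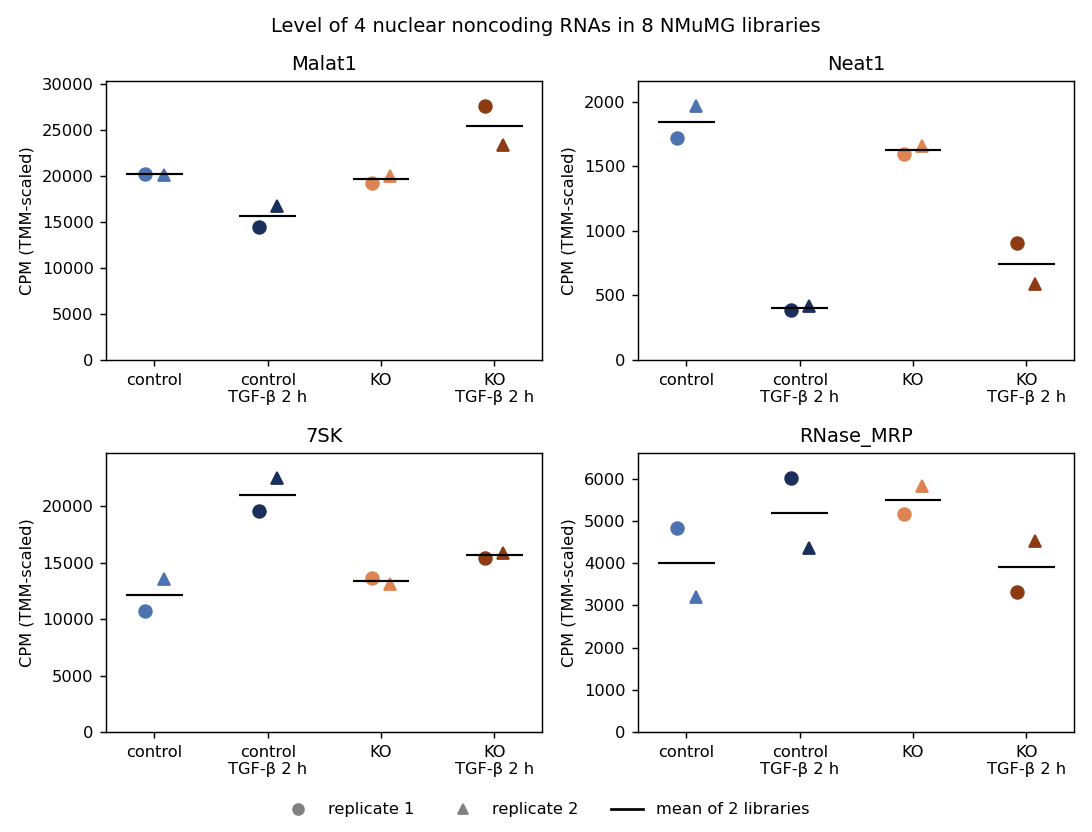
CPM after TMM scaling (vertical axes, starting at 0) of Malat1, Neat1, 7SK and RNase_MRP in each of the 8 libraries, by group; circles are replicate 1, triangles replicate 2, and the line is the mean of 2 libraries. Neat1 was low in both treated groups, and 7SK was highest in treated control cells.

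In control cells, 2 h of TGF-β lowered Neat1 4.61-fold and raised 7SK 1.73-fold, while Malat1 and RNase_MRP did not pass the test. These were 2 of 4 RNAs called, where a call is an adjusted p below 0.05 with a log2 fold change beyond 0.5 in edgeR's quasi-likelihood test. Over all features 9.18% were called in this comparison, 4.7% as higher and 4.48% as lower. Here and below, whether the groups of a comparison overlap is a description. The share of all features without overlap is not given for single comparisons, so nothing is read from it where an RNA was not called.

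Neat1 stood at 1718 and 1963 CPM in untreated control cells and at 384 and 415 in treated control cells. The groups did not overlap, and the difference was far larger than the spread within either group. The log2 fold change was −2.20 ± 0.20 (SE, n = 2 per group, edgeR adjusted p = 5.09e-04). It stayed called under each of the 20 alternatives tried.

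7SK rose from 10768 and 13529 CPM in untreated to 19594 and 22480 CPM in treated control cells. Both treated libraries were above both untreated ones, and the 2 untreated libraries lay apart by more than those of either KO group. The log2 fold change was 0.79 ± 0.14 (edgeR adjusted p = 0.0112). Without control replicate 1, the lowest library, it was 0.63 and not called (adjusted p = 0.0857), and with only the 4 libraries of this comparison in the fit the adjusted p was 0.0965.

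Malat1 had 20243 and 20090 CPM in untreated and 14511 and 16698 CPM in treated control cells. The groups did not overlap, and the log2 fold change of −0.37 ± 0.13 did not pass (edgeR adjusted p = 0.106). Scaled by library totals alone it was −0.51 and called (adjusted p = 0.0428), a setting that moved the median of all features to −0.13 on the log2 scale.

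RNase_MRP had 4825 and 3193 CPM in untreated control cells and 6003 and 4368 CPM after TGF-β. The groups overlapped, and in each group replicate 1 was the higher. The log2 fold change was 0.37 ± 0.23 (edgeR adjusted p = 0.337). It depended on single libraries, at 0.70 without control replicate 1, 0.11 without control replicate 2, 0.11 without treated control replicate 1 and 0.58 without treated control replicate 2, and none of these was a call.

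In cells labelled KO, TGF-β lowered Neat1 2.17-fold, and no other member passed. This was 1 of 4, against 6.85% of all features called in this comparison, 4.26% as higher and 2.59% as lower.

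Neat1 stood at 1596 and 1654 CPM in the untreated libraries labelled KO and at 903 and 592 CPM in the treated ones. The groups did not overlap, and the treated pair lay farther apart than the untreated pair. The log2 fold change was −1.12 ± 0.19 (edgeR adjusted p = 0.00934). With KO replicate 1 left out it was −1.14 (adjusted p = 0.0727) and with KO replicate 2 left out −1.09 (adjusted p = 0.0905), neither of which is a call.

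Malat1 had 19242 and 20045 CPM in untreated and 27560 and 23342 CPM in treated libraries labelled KO. Here both treated libraries lay above the untreated ones, the opposite order to that in control cells, a pattern that 5.25% of all features had. The log2 fold change was 0.37 ± 0.13 (edgeR adjusted p = 0.127), which is not a call.

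7SK had 13644 and 13136 CPM in untreated and 15432 and 15892 CPM in treated libraries labelled KO. The groups did not overlap, with a log2 fold change of 0.23 ± 0.14 (edgeR adjusted p = 0.383). RNase_MRP had 5155 and 5828 CPM in untreated and 3320 and 4515 CPM in treated libraries labelled KO. The groups did not overlap either, with a log2 fold change of −0.49 ± 0.23 (edgeR adjusted p = 0.249). With each library left out in turn this RNase_MRP value ran from −0.71 to −0.26. Neither RNA was called in this comparison.

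Between untreated libraries labelled KO and untreated control libraries, 0 of 4 RNAs were called, against 1.84% of all features, 1.04% as higher and 0.799% as lower. The log2 fold changes in edgeR were −0.04 ± 0.13 for Malat1 (adjusted p = 0.923), −0.18 ± 0.19 for Neat1 (adjusted p = 0.704), 0.14 ± 0.14 for 7SK (adjusted p = 0.689) and 0.45 ± 0.23 for RNase_MRP (adjusted p = 0.402). The 7SK libraries of the 2 groups overlapped. Those of Malat1, Neat1 and RNase_MRP did not, which is a description only, and for Malat1 and Neat1 the gap was small beside the level. Without control replicate 1 the 7SK difference changed sign, to −0.02.

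Between treated libraries the genotypes lay apart. Malat1 was 1.63-fold and Neat1 1.87-fold higher in those labelled KO, 2 of 4 RNAs called, against 15.1% of all features, 8.48% as higher and 6.59% as lower. For Malat1 the log2 difference was 0.71 ± 0.13 (edgeR adjusted p = 0.00925) and for Neat1 0.90 ± 0.19 (edgeR adjusted p = 0.0148). With only these 4 libraries in the fit both lost the call, at adjusted p = 0.0664 for Malat1 and 0.0808 for Neat1. Neat1 without treated KO replicate 1 was at 0.58 (adjusted p = 0.0607), which moves its log2 difference by more than 1.5 times. 7SK was lower in both treated libraries labelled KO than in both treated control libraries, at −0.43 ± 0.14 on the log2 scale (edgeR adjusted p = 0.0696). Without treated control replicate 1 it was at −0.503 and called (adjusted p = 0.0372). RNase_MRP overlapped between the groups, at −0.40 ± 0.23 (edgeR adjusted p = 0.264).

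These comparisons share libraries, so that the treated control pair enters both its own response and the difference between treated genotypes. Whether the response to TGF-β differed between genotypes was tested as an interaction. The difference of the log2 responses, labelled KO minus control, was 0.74 ± 0.18 for Malat1, 1.08 ± 0.27 for Neat1, −0.57 ± 0.20 for 7SK and −0.86 ± 0.33 for RNase_MRP. The edgeR adjusted p was 0.434 for Malat1 and Neat1, 0.498 for 7SK and 0.520 for RNase_MRP. No feature of 13013 was called in this test by edgeR (0%), with 1127 at an unadjusted p below 0.05. DESeq2 called 32 (905 unadjusted), Neat1 among them (1.09, adjusted p = 0.0439), and limma-voom called 0 (1098 unadjusted). Without treated control replicate 1 or 2, edgeR called 4 or 6 features.

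**Figure D2:**
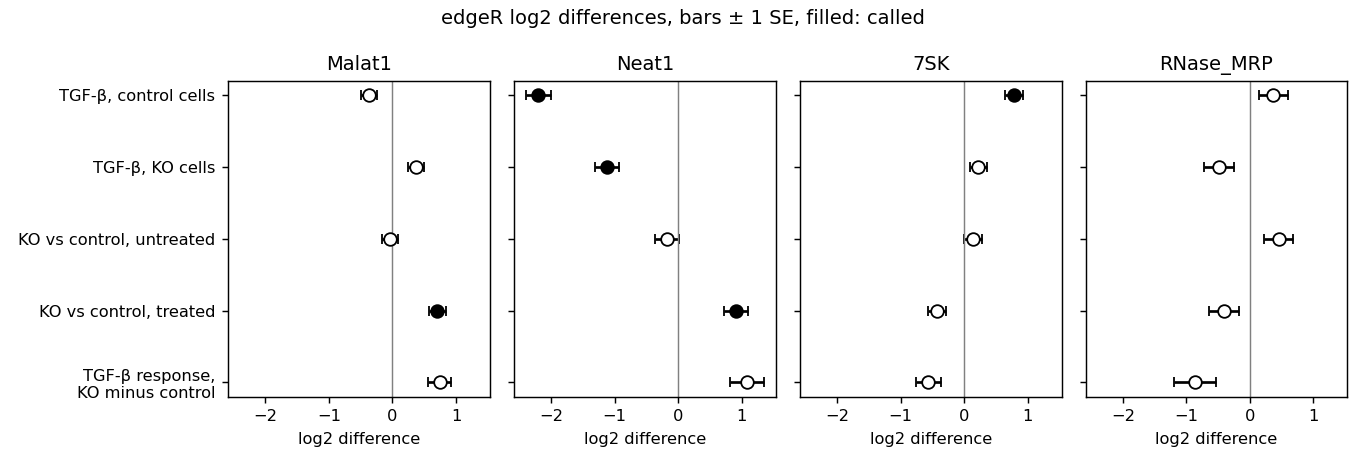
Log2 differences from edgeR (horizontal axis) with bars of 1 SE to either side for each RNA (panels) in the 5 comparisons (rows); filled points are called. The Neat1 response to TGF-β lay at −2.20 in control cells and at −1.12 in cells labelled KO.

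Ratios of counts within a library do not depend on how libraries are scaled. The Neat1 to Malat1 count ratio was 0.0849 and 0.0977 in untreated control cells, 0.0830 and 0.0825 in untreated libraries labelled KO, 0.0265 and 0.0248 in treated control cells and 0.0328 and 0.0253 in treated libraries labelled KO. All 4 treated libraries were below all 4 untreated ones. The mean log2 ratio moved from −3.53 ± 0.12 (SD, n = 4) to −5.20 ± 0.18 (SD, n = 4), a difference of −1.67 (two-sided exact permutation test, p = 0.0286, the smallest that 70 arrangements can give, and 0.171 adjusted over 6 ratio tests). At that smallest p a ratio alone cannot reach an adjusted p below 0.05 over 6 tests, so the adjusted value decides nothing here. Between genotypes the ratio differed by 0.02 on the log2 scale (exact permutation p = 0.971).

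The RNase_MRP to 7SK count ratio was 0.448 and 0.236 in untreated control cells and 0.306 and 0.194 in treated control cells. In libraries labelled KO it was 0.378 and 0.444 untreated and 0.215 and 0.284 treated. Untreated and treated libraries overlapped across the 8, and the log2 difference after TGF-β was −0.57 (exact permutation p = 0.0857, 0.257 adjusted over 6 tests). Between genotypes it was 0.18 (exact permutation p = 0.629).

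The ratio of both long RNAs to both short RNAs set treated control cells apart. It was 0.582 and 0.637 there, against 1.32 and 1.41 in untreated control cells and 1.11 to 1.52 in the 4 libraries labelled KO. Over all libraries neither TGF-β (−0.46 on the log2 scale, exact permutation p = 0.343) nor genotype (0.43, exact permutation p = 0.371) gave a difference that passed. The former was −0.25 and −0.29 without treated control replicates 1 and 2 and −0.71 without treated replicate 1 labelled KO. The latter was 0.21 and 0.26 without treated control replicates 1 and 2. The treated control pair was pooled with the treated pair labelled KO in the former test and with the untreated control pair in the latter.

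**Figure D3:**
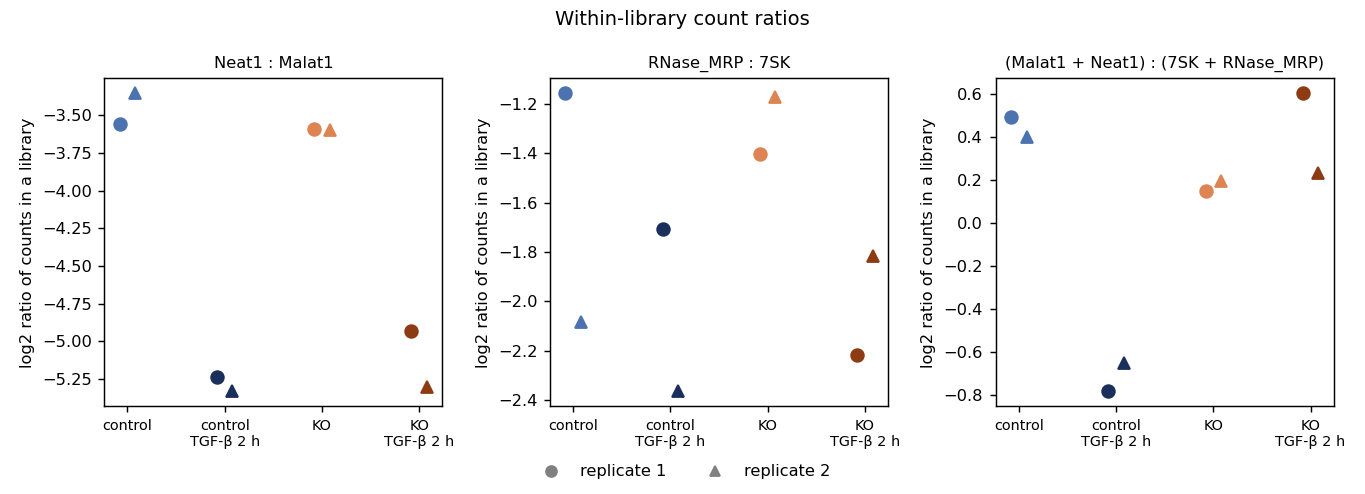
Log2 of the count ratio within each library (vertical axes) for Neat1 to Malat1, RNase_MRP to 7SK and the sum of the long RNAs to the sum of the short RNAs, by group; circles are replicate 1 and triangles replicate 2. In the first panel all 4 treated libraries lie below −4.9 and all 4 untreated ones above −3.6.

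The rows summed as 7SK did not move together. The chromosome 9 gene took 88.9% to 93.8% of the 7SK counts of a library and carried the rise, from 10137 and 12958 to 17210 and 20130 CPM of library totals in control cells. In libraries labelled KO it stood at 13125 and 12241 untreated and 13405 and 13319 treated.

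The chromosome 15 row had 636 and 448 CPM of library totals in untreated control cells, 1012 and 718 in treated control cells, 853 and 782 in untreated libraries labelled KO and 478 and 511 in treated ones. It was thus higher after TGF-β in control cells and lower after it in the libraries labelled KO. Taken alone, its log2 change in the latter was −0.57 (edgeR adjusted p = 0.138), opposite in sign to the sum. Between treated genotypes it was −0.79 and called (edgeR adjusted p = 0.0309). Its log2 CPM went with RNase_MRP more than with the chromosome 9 gene, at a Pearson correlation of 0.87 against 0.41 over 8 libraries, which share their depth and scaling.

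The chromosome X row (ENSMUSG00000064999.1) had 493 and 723 CPM of library totals in untreated control cells and 325 and 463 in treated ones. In libraries labelled KO it had 191 and 658 untreated and 879 and 814 treated. Its 2 untreated libraries labelled KO were the farthest apart of the 4 pairs of this row, and its difference between treated genotypes was 1.12 on the log2 scale (edgeR adjusted p = 0.125), opposite in sign to that of the sum. How the authors assigned reads that match several rows is not given in the sources used here, so the split among the rows is uncertain. Each result for the sum kept its sign and call when the chromosome 9 row alone was used.

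**Figure D4:**
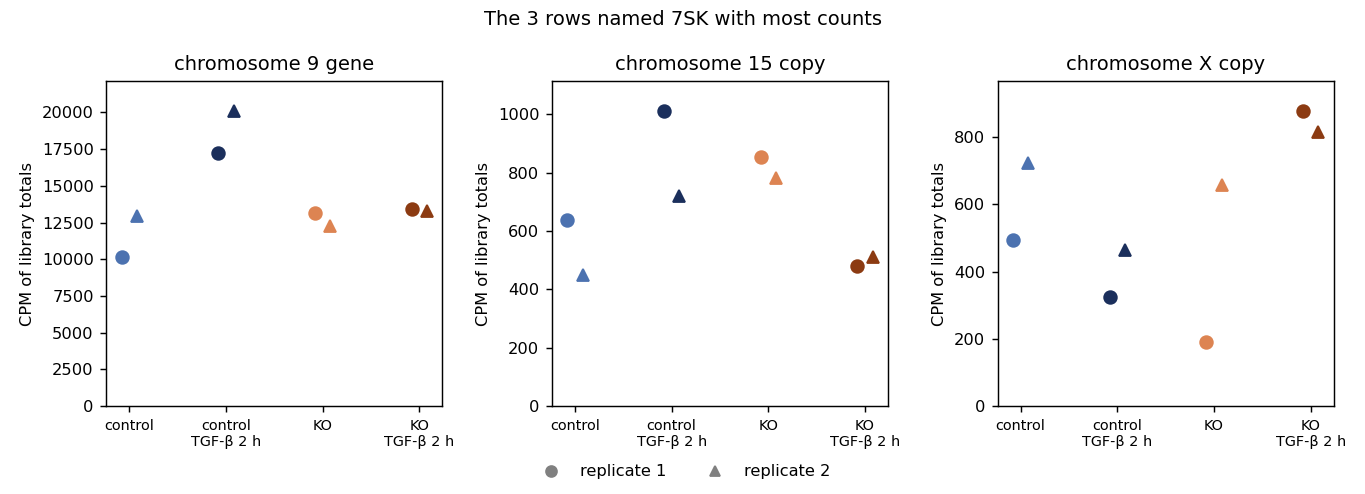
CPM of library totals (vertical axes, starting at 0, each with its own range) for the 3 leading rows named 7SK, by group; circles are replicate 1 and triangles replicate 2. The chromosome 9 gene is highest in treated control cells, and the chromosome X row is highest in treated libraries labelled KO.

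Partner and neighbour genes were read from lists, and most of their calls rest on few libraries. Of 41 called results, counting the epithelial markers Krt8 (0.65) and Krt18 (0.96) higher after TGF-β in control cells and Cdh1 (0.61) higher in treated libraries labelled KO, between 11 and 27 lost the call when any 1 library was left out, and none changed sign. In 5 of the 41 leaving out 1 library moved the value by more than 1.5 times. Of these Krt8 was at 0.42 and Krt18 at 0.62 without treated control replicate 1, neither called, and the other 3 are given with their lists. The 4 results called under every alternative tried were Pop4, Capn1, a U1 row and a U2 row, all between treated genotypes. The epithelial markers were called in 2 of 6 and 1 of 6 tested (33.3% and 16.7%), against 9.18% and 15.1% of all features. Nothing is read from a share of a list near that over all features.

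The proteins that work with 7SK were taken as a list of 7. After TGF-β in control cells 1 of 7 was called (14.3%, against 9.18% of all features), Hexim1, the protein that inhibits P-TEFb when bound to 7SK. Hexim1 had 44.5 and 32.6 CPM in untreated and 22.3 and 17.3 CPM in treated control cells (log2 fold change −0.96 ± 0.21, edgeR adjusted p = 0.0273). It thus fell in the comparison where 7SK rose. In cells labelled KO it had 35.5 and 37.9 CPM untreated and 40.3 and 33.6 CPM treated, with a log2 fold change of 0.01 (edgeR adjusted p = 0.986) and 0 of 7 called. Between treated genotypes Hexim1 was higher (0.90 ± 0.21, edgeR adjusted p = 0.0230) and Larp7, which binds the 3′ end of 7SK, lower (−0.61 ± 0.15, edgeR adjusted p = 0.0250) in those labelled KO, 2 of 7 against 15.1% of all features. The median of the list was −0.34 after TGF-β in control cells, where that of all features was 0.02.

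Of 11 proteins of RNase MRP and the related RNase P, 9 were tested. After TGF-β 0 of 9 were called in either genotype. Pop4, a subunit of both enzymes, had 27.1 and 25.9 CPM in untreated and 37.5 and 34.9 CPM in treated control cells. In the libraries labelled KO it had 13.7 and 11.8 CPM untreated, and with the treated ones the range was 10.3 to 13.7 CPM, below all 4 control libraries. It was lower in those labelled KO both untreated (−1.06 ± 0.19, edgeR adjusted p = 0.0270) and treated (−1.77 ± 0.18, edgeR adjusted p = 9.88e-04). Rpp30, another shared subunit, was lower in treated libraries labelled KO (−1.05 ± 0.22, edgeR adjusted p = 0.0142). The calls were thus 1 of 9 untreated and 2 of 9 treated (22.2%), against 1.84% and 15.1% of all features.

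Of 27 paraspeckle proteins 26 were tested. After TGF-β in control cells 2 of 26 fell (7.69%, where 9.18% of all features were called and 4.48% as lower), Taf15, an RNA-binding protein (−0.79 ± 0.17, edgeR adjusted p = 0.0227), and Smarca4, a chromatin remodelling ATPase (−0.53 ± 0.13, edgeR adjusted p = 0.0364). In cells labelled KO, where Neat1 also fell, Hnrnph1, a splicing regulator, rose (0.63 ± 0.13, edgeR adjusted p = 0.0243) and Zc3h6, a zinc-finger protein near 1 to 5 CPM, fell (−1.86 ± 0.47, edgeR adjusted p = 0.0460), again 7.69%, against 6.85% of all features. In each response 24 of 26 were not called, among them the core paraspeckle proteins Sfpq (−0.27 and −0.02), Nono (0.29 and 0.16) and Pspc1 (−0.16 and −0.08). Between treated genotypes Smarca4 was higher (0.66) and Rbmx (−0.56) and Hnrnpul1 (−0.52) were lower in those labelled KO, 3 of 26, a smaller share than the 15.1% of all features.

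Of 21 nuclear speckle proteins and partners of Malat1, 3 fell after TGF-β in control cells (14.3%, where 9.18% of all features were called and 4.48% as lower). Among them were the splicing coactivator Srrm1 (−0.74 ± 0.15, edgeR adjusted p = 0.0213) and the splicing-associated Acin1 (−0.57 ± 0.14, edgeR adjusted p = 0.0384). In cells labelled KO 0 of 21 were called. Acin1 (0.73), Srrm1 (0.65) and the splicing factor Srsf4 (0.60) were higher in treated libraries labelled KO. These were 3 of 21 (14.3%), about the 15.1% of all features called there, and the median of the list was −0.13, against −0.01 over all features.

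RNA polymerase III, which makes 7SK and RNase MRP RNA, and its factors gave 2 calls of 27 after TGF-β in control cells, both lower (7.41%, against 9.18% of all features). These were Gtf3c2 of the factor TFIIIC (−0.60 ± 0.13, edgeR adjusted p = 0.0268) and Snapc4 of the complex SNAPc (−0.78 ± 0.20, edgeR adjusted p = 0.0404), while the median of the list was 0.05. In cells labelled KO 0 of 27 were called. Between treated genotypes Gtf3c2 was higher (0.68) and the polymerase subunit Polr3f (−0.53) and the RNA-binding La protein Ssb (−0.73) were lower in those labelled KO, 3 of 27 (11.1%) against 15.1% of all features. Without treated control replicate 2, Ssb was at −0.39 and not called (edgeR adjusted p = 0.224).

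Of 60 tested rows of other noncoding RNAs, 2 rows named U2, the spliceosomal RNA, rose after TGF-β in control cells (1.65 and 1.86), with a list median of 0.51. The share called was 3.33%, against 9.18% of all features. In cells labelled KO the median was −0.22, and Pvt1 (−0.95) and a row named U3 (−3.31) fell. That U3 row had 49.6 CPM in replicate 1 and 6.11 in replicate 2 of the untreated libraries labelled KO, and without the former it was at −1.15 and not called (edgeR adjusted p = 0.430). The U2 row at 1.86 was likewise at 1.03 and not called without treated control replicate 2 (edgeR adjusted p = 0.209). Between treated genotypes a U2 row (−1.53), a U1 row (−1.63) and the snoRNA host Snhg5 (−0.60) were lower in those labelled KO, 5% of the list against 15.1% of all features. The median of the list was −0.79 there, the farthest from 0 of its medians in the 4 comparisons, against −0.01 over all features. How reads that match several copies of U1, U2 or U3 were assigned is not given in the sources used here, so that these rows are uncertain one by one.

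Around Malat1 and Neat1 11 of 14 listed protein-coding genes were tested. Pola2, a subunit of DNA polymerase alpha that lies 95065 bases from the pair, fell after TGF-β in control cells (−0.64 ± 0.14, edgeR adjusted p = 0.0265) and in cells labelled KO (−0.99 ± 0.14, edgeR adjusted p = 0.00473). Ehbp1l1 rose in both (0.77 and 1.21, edgeR adjusted p = 0.0354 and 0.00629). These were 2 of 11 in each response (18.2%), against 9.18% and 6.85% of all features. Frmd8, at 4224 bases from Neat1, was not called in either (−0.33 and −0.17). Between treated genotypes the calcium-dependent protease Capn1 (0.91), the latent TGF-β binding protein Ltbp3 (1.01) and Cdc42ep2 (0.53) were higher in those labelled KO, 3 of 11 (27.3%) against 15.1% of all features. The median of the 11 there was 0.49, against −0.01 over all features. The list left out 3 tested protein-coding genes that lie nearer than its farthest gene, Capn1 at 143068 bases, and they were added after their values were seen. Pcnxl3, at 106782 bases, fell after TGF-β in control cells (−1.13, edgeR adjusted p = 0.0230) and was higher in treated libraries labelled KO (1.27, edgeR adjusted p = 0.0104). The former lost its call under 5 of 20 alternatives, with values from −1.61 to −0.78, and the latter under 2 of 20, with values from 0.92 to 1.75. Sipa1 (0.60) and Sssca1 (−0.03) were not called there or in any other comparison. With all 14 genes the median between treated genotypes was 0.51, and after TGF-β in cells labelled KO it turned from 0.17 to −0.06.

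**Figure D5:**
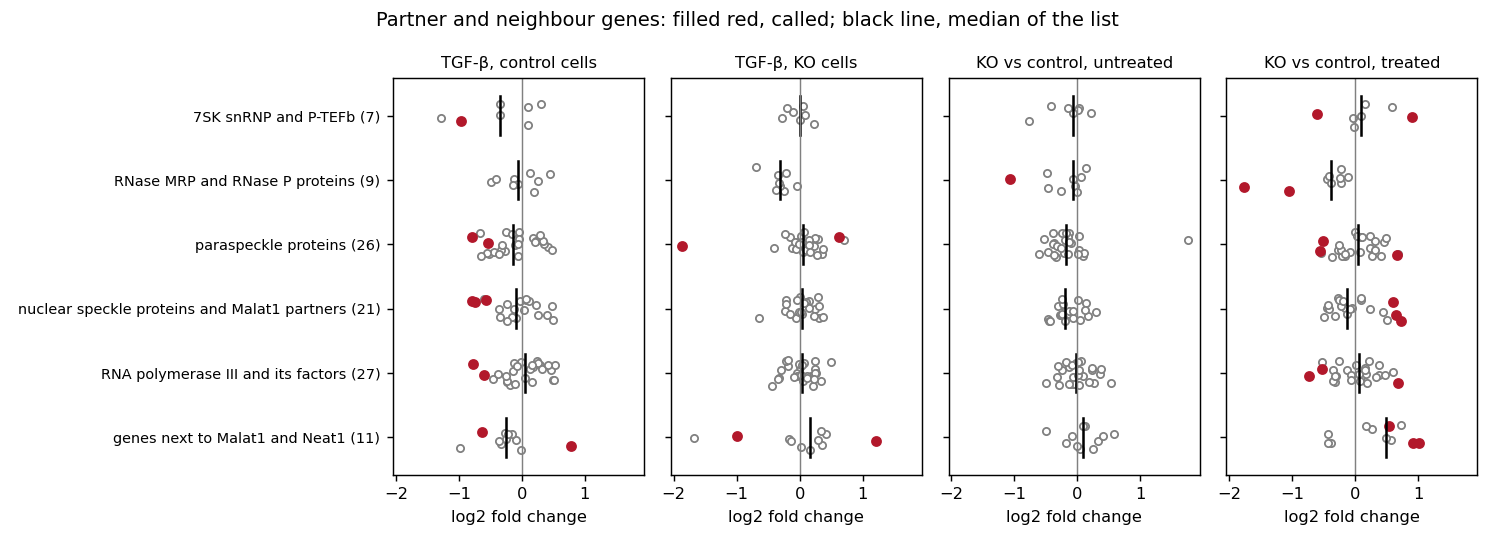
Log2 fold changes from edgeR (horizontal axes) of the tested genes of 6 lists (rows, number of genes in brackets) in 4 comparisons; red points are called and the black line is the median of the list. Pop4 is the lowest point of the row of RNase MRP and RNase P proteins in both comparisons of genotypes.

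Over the 8 libraries the features most like each RNA in log2 CPM were named from 6227 features with a mean log2 CPM of at least 5. These correlations are descriptions over libraries that share scaling and conditions. For Malat1 they were Ube2h (Pearson 0.968), Ttll12 (0.956) and Mapk14 (0.941). For Neat1 they were Pofut1 (0.992), Tnrc6b (0.988) and Hps5 (0.982), each of which changed less than Neat1 did, between −0.62 and −0.67 on the log2 scale after TGF-β in control cells. For 7SK they were Ormdl2 (0.988), Hdac3 (0.979) and Cd47 (0.971). For RNase_MRP they were Vhl (0.941), Dnajc11 (0.936) and the short RNA Vault (0.928). As it was picked for this likeness, its log2 fold changes after TGF-β add nothing to it. They were 0.84 in control cells (edgeR adjusted p = 0.133) and −0.63 in cells labelled KO (edgeR adjusted p = 0.287), neither of which is a call. Among the members, Neat1 and 7SK had a correlation of −0.90, Neat1 and Malat1 of 0.37 and RNase_MRP and 7SK of 0.05.

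Misc_RNA rows, which hold 7SK and RNase_MRP, took 3.06% to 4.96% of a library, with the highest share in treated control replicate 1. Chosen after their values were seen, 3 other short rows with many counts were set beside RNase_MRP. AC027184.1, AC157822.1 and AC099934.1 had a Pearson correlation with it of 0.824, 0.792 and 0.754 over the 8 libraries. None of the 3 was called in any response to TGF-β or between genotypes, with log2 fold changes after TGF-β of 0.43, 0.88 and 0.67 in control cells and of −0.11, 0.03 and −0.07 in cells labelled KO, where RNase_MRP was at −0.49.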

How the data were processed

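Raw counts per gene in 8 libraries were deposited in a single table. Per the study's methods the authors aligned reads with subjunc to mm10 and mm9 and removed duplicates, whereas the submitters' processing notes name HISAT2, limma and mm10. The sequencing layout and the kit also differ between the methods and the labels. Neither the counting tool nor its use of strand is given in the sources used here. Identifiers matched GENCODE vM1.

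Rows of a member symbol were summed. Features were filtered with filterByExpr, scaled by TMM and fitted over the 4 groups with edgeR 4.0.16 (R 4.3.3), with Benjamini-Hochberg adjustment over 13013 features. CPM uses TMM-scaled totals. Differences of log2 ratios were tested by exact permutation. DESeq2 1.42.0, limma-voom 3.58.1, other scalings and filters, thinned counts, the replicate number as a block, fits of 4 libraries and leaving out each library were alternatives. The edgeR fit was tested on simulated counts with changes set in treated control cells. It called 49 of 100 changes of 1 and 81 of 100 changes of 2 on the log2 scale, and 19 unchanged features. Members and lists were chosen with earlier results of these data known. Named genes were the called genes of each list, at most 3 per list and comparison by smallest p, and the 3 features most like each member. Some listed genes are counted but not reported here by name. The 95% intervals and depths cover counting error only. Sequences were read from the NCBIM37 genome, and the groups came from the labels.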

Additional observations from a re-analysis of the deposited data

Results flagged for a closer look

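After TGF-β both Malat1 libraries of control cells lay below the untreated ones and both of those labelled KO above them. On the log2 scale these responses were −0.37 and 0.37, and neither was called. The difference of the responses was 0.74 on the log2 scale and did not pass the interaction test (edgeR adjusted p = 0.434). Of 62 results compared in this way 14 had such opposite moves without overlap, against 5.25% of all features, and many of the 62 were chosen for a call or for their likeness to a member.

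Among the rows summed as 7SK the difference of the responses was −1.38 for the row on chromosome 15 (edgeR adjusted p = 0.429) and 1.63 for that on chromosome X (edgeR adjusted p = 0.520). For the log2 ratio of both long RNAs to both short RNAs it was 1.41, and this difference was not tested. Of 53 other named genes and rows 10 had such moves. The log2 differences were −0.71 for Pop4, 0.89 for Srrm1, 0.72 for Gtf3c2, 0.50 for Capn1, 0.72 for Cdc42ep2, −2.05 for a U2 row and −1.47 for Vault. Ube2h (0.81), Ttll12 (0.63) and Mapk14 (0.73) had been chosen for their likeness to Malat1. No difference among these 10 passed the interaction test, at edgeR adjusted p from 0.434 to 0.569.

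In the Neat1 to Malat1 ratio, control replicate 2 stood apart from the other 3 untreated libraries. Its gap to the nearest of them was 0.835 of their range on the log2 scale, just past the critical value of Dixon's test for 4 libraries, which chance passes in about 1 in 20 groups.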

How the results depend on the processing

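Neat1 after TGF-β in control cells kept its direction and call under all 20 alternatives, with log2 values from −2.35 to −2.10. With only the 4 libraries of a comparison in the fit, calls were lost for 7SK after TGF-β in control cells (0.79), Malat1 between treated genotypes (0.71) and Neat1 between treated genotypes (0.91). Library totals alone gave Malat1 after TGF-β in control cells a call (−0.51). Without a filter on low counts the interaction was called for Malat1 (0.81), Neat1 (1.15) and RNase_MRP (−0.79), and with DESeq2 for Neat1 (1.09). The 7SK row on chromosome X alone turned 7SK to −0.49 after TGF-β in control cells, −0.51 between untreated genotypes, 1.12 between treated genotypes and 1.63 in the interaction. The row on chromosome 15 alone turned it to −0.57 after TGF-β in cells labelled KO and gave a call between treated genotypes (−0.79). Both single-row settings and a scale set without small RNAs were chosen after seeing the data, and the cause of these changes was not tested.

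With each library left out in turn, the log2 values ran from 0.63 to 0.97 for 7SK after TGF-β in control cells, from −1.43 to −0.84 for Neat1 after TGF-β in cells labelled KO, from −0.0201 to 0.313 for 7SK between untreated genotypes, from 0.58 to 1.18 for Neat1 and from −0.503 to −0.32 for 7SK between treated genotypes, which became a call without treated control replicate 1 (adjusted p = 0.0372). RNase_MRP, which no such setting gave a call, ran from 0.11 to 0.70 and from −0.71 to −0.26 after TGF-β in control and labelled KO cells, and from 0.19 to 0.78 and from −0.64 to −0.14 between untreated and treated genotypes. The genotype difference of the Neat1 to Malat1 ratio ran from −0.31 to 0.35, turning at −0.27 and −0.31 without either treated control library and at −0.24 and −0.24 without either untreated library labelled KO. That of RNase_MRP to 7SK ran from −0.003 to 0.40, turning at −0.0031 without treated control replicate 2. The ratio of long to short RNAs ran from −0.71 to −0.25 after TGF-β and from 0.21 to 0.64 between genotypes. The partner and neighbour genes gave 820 values under alternatives, of which 239 lost the call and 0 changed sign. A group left with 1 library was assumed to vary like the others.

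The replicate numbers did not match the samples alike in all groups. Deviations of same-numbered libraries correlated at 0.30 between untreated and treated control cells and at −0.47 between the treated genotypes. The other pairs of groups lay between these values. Shared structure among libraries under other numbers is thus not excluded. With the replicate number as a block Neat1 was at −2.20 after TGF-β in control cells, 7SK at 0.80, Neat1 at −1.13 in cells labelled KO, and Malat1 and Neat1 at 0.71 and 0.90 between treated genotypes, and no member's call changed. Features called between untreated genotypes went from 239 to 157 under the block. With the numbers of the treated libraries labelled KO exchanged, chosen after seeing the data, the counts were 1958 and 1552 after TGF-β in control and labelled KO cells, 538 and 2808 between untreated and treated genotypes and 5 in the interaction.

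The number of features called also moved elsewhere. After TGF-β in control cells 1195 became 2019 unfiltered, 480 with 4 libraries and 770 thinned, and 892 in cells labelled KO became 1827 unfiltered. Between untreated genotypes 239 became 752 unfiltered, 815 with 4 libraries, 428 with DESeq2, 137 with limma-voom and 138 thinned, and between treated genotypes 1962 became 409 with 4 libraries. In the interaction 0 became 203 unfiltered and 32 with DESeq2. With 1 library left out the lowest counts were 156 and 136 after TGF-β in control and labelled KO cells, and 43 and 502 between untreated and treated genotypes. The highest were 1490 and 1385, 391 and 2775, each without a treated control library, which also took the interaction to 4 and 6. With 2 libraries per group, a p that misses the threshold does not show that levels were alike.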
